A study of Mus musculus with 5 samples.

Results

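The 9 genes followed here bear on how lymph node lymphatic endothelium meets T cells, as checkpoint ligands, tolerance enzymes or a displayed tissue antigen: Cd274, Pdcd1lg2, Cd80, Cd86, Icosl, Nos2, Ido1, Lgals9 and Tyr. They were chosen by name, with earlier results of these data known, and all 9 were found among the 27843 genes of the count table. The libraries came from lymphatic endothelial cells (LECs) that had been sorted from lymph nodes of C57BL/6 mice aged 8 weeks. All animals were Rankl flox/flox, which marks the gene of the cytokine RANKL for deletion. The labels give no further allele for the 3 control libraries. The 2 knockout libraries also carried Ccl19 Cre, a recombinase driven from a gene of stromal reticular cells, and the labels call this a stromal deletion. The number of animals behind each library is not stated. P-values therefore set the difference between the groups against the spread between libraries within a group.

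LECs line the sinuses of a lymph node and meet T cells as they pass through. They can show T cells self antigens that are otherwise made in peripheral tissues, and at the same time carry inhibitory ligands, so that the T cells are restrained rather than armed. Cd274, Pdcd1lg2, Cd80, Cd86 and Icosl encode ligands of the B7 family, which binds receptors of the CD28 family on T cells. LECs can also make nitric oxide through Nos2, and Ido1 breaks down tryptophan, an amino acid that dividing T cells need.

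Totals ran from 52839375 to 70171307 counts per library. The sorted cells carried LEC genes at high levels, with Prox1 at 1460 ± 103 CPM in controls (CPM, counts scaled to library size; mean ± SD over 3 libraries) against 868 ± 22.9 CPM over the 2 knockouts, and Pecam1 at 1330 ± 8.42 and 1330 ± 25.4 CPM. Ptprc, which encodes the leukocyte marker CD45, stood at 2.46 ± 0.294 and 2.64 ± 0.35 CPM. Pairs of controls had Spearman correlations of 0.9902 to 0.9929, the knockout pair 0.9824, and control with knockout 0.9773 to 0.9801. Of 10 general LEC markers, 2 rose and 2 fell. Of 9 T and NK cell markers 1 fell, and of 12 fibroblastic reticular cell markers 0 passed by edgeR (1 in each direction at an unadjusted p under 0.05, 1 lower by DESeq2 and 0 by limma-voom). The reticular cell markers were not scarce, with sums of 1500 to 1670 CPM in controls and 1400 to 1710 CPM in knockouts. Most of this was Enpp2 (1150, 1070 and 1130 CPM against 592 and 879 CPM) and Dcn (217, 325 and 234 CPM against 692 and 332 CPM). Tnfsf11, which encodes RANKL, had 27, 13 and 9 reads in controls and 9 and 0 in knockouts, and does not check a deletion made in other cells.

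Promoter windows were taken from RefSeq (build GRCm38.p6) for the 6 genes that its table held, and those of Nos2, Ido1 and Cd86 were not matched. Sequences are shown for the 3 of these 6 genes with the most reads, from 250 bases before the transcript start up to that start, 5′ to 3′ on the coding strand, with motif matches in capitals. They lie at chr19:29367188-29367437 (plus strand), chr11:78984925-78985174 (minus strand) and chr7:87493513-87493762 (minus strand). Motifs were searched on both strands in windows that also held the 50 bases after the start.
Cd274: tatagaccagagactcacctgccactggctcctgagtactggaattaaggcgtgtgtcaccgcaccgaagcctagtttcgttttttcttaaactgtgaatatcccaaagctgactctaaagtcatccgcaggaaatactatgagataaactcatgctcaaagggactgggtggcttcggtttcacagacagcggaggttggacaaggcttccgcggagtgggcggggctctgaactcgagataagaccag
Lgals9: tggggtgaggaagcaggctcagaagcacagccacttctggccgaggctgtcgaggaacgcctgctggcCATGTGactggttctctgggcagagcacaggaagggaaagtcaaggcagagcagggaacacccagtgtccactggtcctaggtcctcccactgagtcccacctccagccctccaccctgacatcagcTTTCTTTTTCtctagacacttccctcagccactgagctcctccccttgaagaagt
Tyr: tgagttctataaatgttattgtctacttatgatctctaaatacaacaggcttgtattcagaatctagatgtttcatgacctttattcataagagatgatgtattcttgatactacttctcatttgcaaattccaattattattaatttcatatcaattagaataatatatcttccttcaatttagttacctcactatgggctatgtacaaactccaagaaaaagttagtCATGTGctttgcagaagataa
The Cd274 window held no match to any of the 5 motifs searched. The Lgals9 window held the interferon-stimulated response element (GAAA, any 2 bases, GAAA) on the opposite strand at 55 bases before the start, and again 16 bases after it, outside the stretch shown. It also held CATGTG, the core of the M-box that is known from pigment genes, 182 bases before the start. The Tyr window held CATGTG once, 21 bases before the start. Of 32851 windows of this length, 3.44% held that element and 14.2% held CATGTG. The other motifs were the gamma-activated site TTCNNNGAA (8.3% of windows), the AP-1 site TGANTCA (7.81%) and the NF-kB consensus (8.46%), and none of the 3 matched in the Cd274, Lgals9 or Tyr windows. Among the windows not shown, the NF-kB consensus matched in Icosl and Pdcd1lg2, CATGTG in Pdcd1lg2, and TGANTCA in Cd80. No measurement here bears on the binding of a factor to these letters.

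Levels were compared between genes as RPKM (CPM divided by exon length in kilobases). Lgals9 was the most abundant of the 9, at 181 ± 12.3 RPKM in controls (SD, n = 3), above 98.5% of the genes tested. Cd274 followed at 25.9 ± 3.36 RPKM and Nos2 at 19.6 ± 2.46 RPKM, above 88.7% and 85.4% of tested genes. Tyr stood at 1.33 ± 0.0845 RPKM and Icosl at 0.448 ± 0.0201 RPKM. In each of the 5 libraries the order was Lgals9, Cd274, Nos2, Tyr and Icosl, from high to low. The other 4 genes were scarce in controls, with Pdcd1lg2 at 0.198 ± 0.108 RPKM, Ido1 at 0.194 ± 0.14 RPKM, Cd86 at 0.145 ± 0.00749 RPKM and Cd80 at 0.0251 ± 0.0116 RPKM. Ranges of Icosl, Ido1, Cd86 and Pdcd1lg2 overlapped their neighbours in this order, so no order is drawn among them.

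In the knockouts, Nos2 fell to 52% of its control level, and it was the 1 gene of the 9 that passed the test over all genes. Tyr was at 44.8% of its control level and narrowly missed the threshold, and Cd274 was only slightly lower and overlapped the controls. Lgals9 and Cd86 had higher values that did not pass. Of the 8 genes that passed the filter on low counts, 0 rose and 1 fell, against 7.24% of 15874 tested genes called in either direction, 3.25% higher and 3.99% lower (edgeR quasi-likelihood F test, Benjamini-Hochberg adjusted over all genes, threshold 0.05). The 2 of 8 that had an unadjusted p under 0.05 on the higher side were Cd86 and Lgals9, and DESeq2 and limma-voom called 0 members higher. The median log2 fold change of the 8 was -0.21, beside 0.00 over all tested genes. For 4 of the 8 the groups did not overlap, 2 on each side, beside 45.4% of all tested genes (22.8% higher and 22.5% lower). A smaller share of sorted cells that carry a gene and less RNA per cell cannot be told apart in these libraries.

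**Figure D1:**
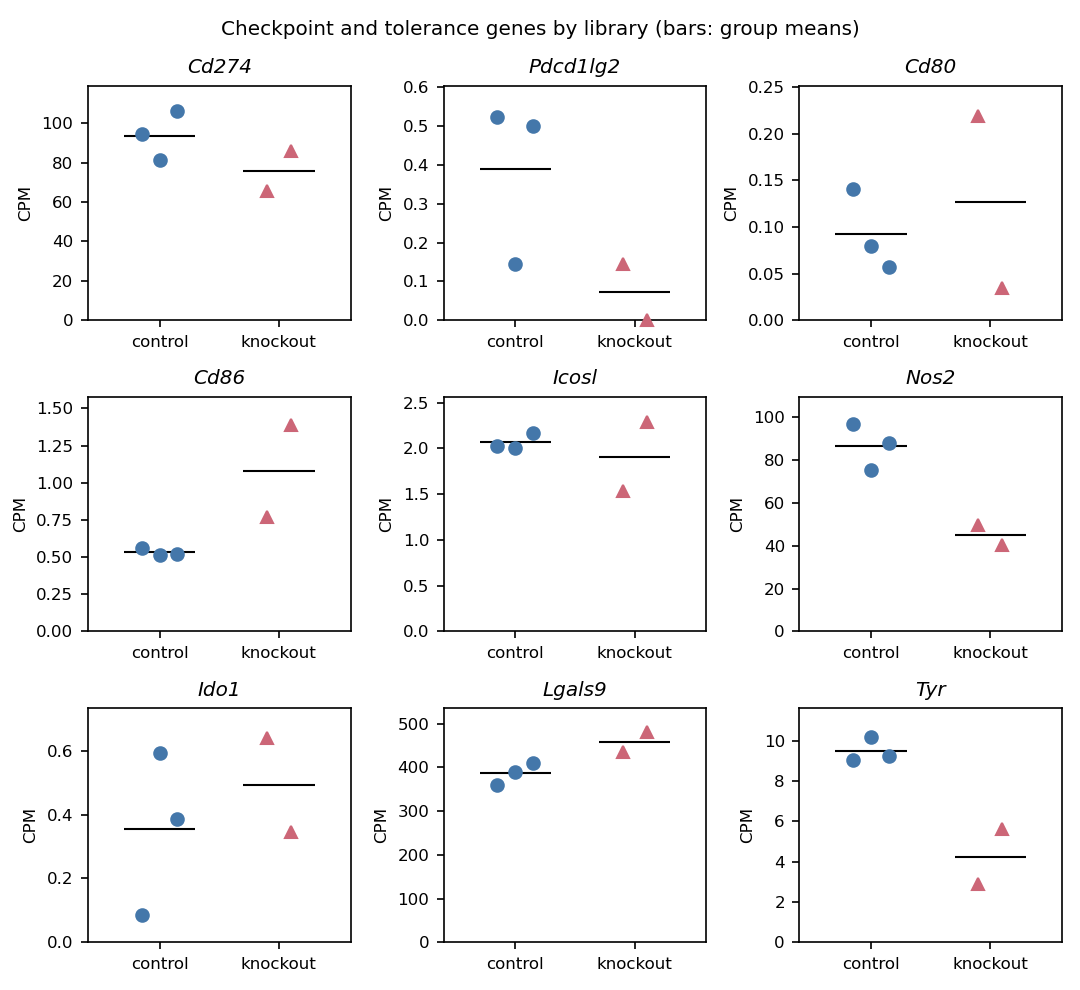
CPM (vertical axis, from 0) of each of the 9 genes in each library, with blue circles for the 3 controls, red triangles for the 2 knockouts and bars for group means. Both knockout points lie below all controls for Nos2 and Tyr and above them for Cd86 and Lgals9.

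**Figure D2:**
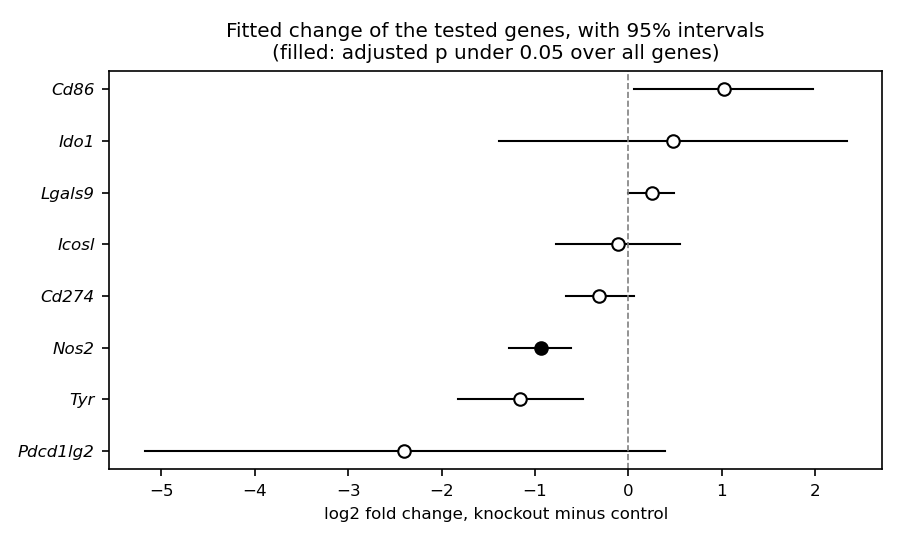
Fitted log2 fold change, knockout minus control (horizontal axis), of the 8 tested genes, with lines for 95% intervals and a filled point where the adjusted p over all genes was under 0.05. Nos2, at -0.94, has the filled point, and the interval of Pdcd1lg2 is the widest, from -5.18 to 0.39.

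Cd274 encodes PD-L1, the main ligand of the T cell brake receptor PD-1. The gene (ENSMUSG00000016496) lies on the plus strand of mm10 chromosome 19, from 29367455 to 29388095, with 7 exon blocks. It had 6696, 5071 and 5485 reads in controls 1, 2 and 3 and 3596 and 4985 reads in knockouts 1 and 2. Scaled to library size these were 94.3, 81.2 and 106 CPM against 65.7 and 85.7 CPM. Knockout 1 was the lowest of the 5 libraries, while knockout 2 lay between controls 2 and 1. The log2 fold change was -0.31 ± 0.15 (SE, 95% interval -0.67 to 0.06), and it did not pass (edgeR, Benjamini-Hochberg, adjusted p = 0.26). It ranged from -0.52 without knockout 2 to -0.13 without knockout 1. An annotated antisense gene, AC119228.1, covers 14.1% of the exon bases of Cd274, and the library kits do not mark strand, so reads there cannot be assigned to either.

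Pdcd1lg2 encodes PD-L2, the other ligand of PD-1, and starts 22.8 kb after the end of Cd274 with no annotated gene between them (chromosome 19, 29410919 to 29471161, plus strand). It was close to the detection limit, with 37, 9 and 26 reads in controls and 8 and 0 reads in knockouts. The highest knockout value, 0.146 CPM, lay just above the lowest control value, 0.144 CPM, so the groups overlapped. The 0 reads of knockout 2 allow up to 0.0516 CPM by counting error alone (3 counts of its scaled total). The log2 fold change was -2.40 ± 1.17 (SE), and the adjusted p was 0.25 (edgeR, Benjamini-Hochberg). It was -1.40 without knockout 2, and without knockout 1 the remaining knockout has 0 reads, so no fold is given. As a share of Cd274 per length, Pdcd1lg2 stood at 1.02%, 0.328% and 0.876% in controls and 0.411% and 0% in knockouts, so PD-L2 transcripts were scarce beside those of PD-L1 in every library.

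Cd80 and Cd86 encode the B7 ligands that arm T cells through CD28 and restrain them through CTLA-4. Both lie on chromosome 16, 1.79 Mb apart (Cd86, 36603869 to 36666081, minus strand; Cd80, 38455561 to 38496335, plus strand). Cd80 did not pass the filter on low counts, with 10, 5 and 3 reads in controls and 12 and 2 in knockouts. The 2 knockouts were the highest and the lowest of its 5 CPM values, at 0.219 and 0.0344 CPM. Cd86 had 40, 32 and 27 reads in controls and 42 and 81 in knockouts. Its control values were tight, at 0.563, 0.513 and 0.519 CPM, and both knockouts lay above them at 0.767 and 1.39 CPM. The log2 fold change of Cd86 was 1.02 ± 0.40 (SE, adjusted p = 0.17, edgeR, Benjamini-Hochberg), and 0.52 without knockout 2 and 1.38 without knockout 1.

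Cd86 is also carried by B cells, dendritic cells and macrophages, and the markers of these cells were read beside it. Of 6 tested B cell markers 0 passed by edgeR (1 at an unadjusted p under 0.05, and 1 by DESeq2 and 0 by limma-voom), all 6 had positive log2 fold changes, and their summed level was 16.0 to 36.4 CPM in controls and 43.6 to 44.7 CPM in knockouts. Of 10 dendritic cell markers 0 passed by edgeR (2 at an unadjusted p under 0.05, and 1 each by DESeq2 and limma-voom), with sums of 437 to 475 CPM and 383 to 410 CPM that rest mostly on Zbtb46 and Fscn1. Itgax, the defining dendritic cell integrin, stood at 0.0141 to 0.304 CPM in controls and 0 to 0.237 CPM in knockouts. Of 14 macrophage and monocyte markers 1 rose and 2 fell, with sums of 327 to 575 CPM and 427 to 554 CPM that were nearly all Cd14. The macrophage genes Csf1r (log2 fold change -2.58) and Mpeg1 (-2.27) fell from 1.11 to 1.73 and 2.21 to 3.67 CPM in controls, Adgre1 rose from 0 reads to 0.274 and 0.344 CPM, and Cd163 had 0 reads in all libraries. Without any 1 of the 3 controls, 0 of these 3 macrophage calls passed. Their part in the values of Cd86 was not tested.

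Icosl encodes the ligand of ICOS, a receptor that supports helper and regulatory T cells (chromosome 10, 78069302 to 78083913, plus strand). It had 144, 125 and 113 reads in controls and 84 and 133 in knockouts, which gave 2.03, 2.00 and 2.17 CPM against 1.53 and 2.29 CPM. The 2 knockouts were again the lowest and the highest library. The log2 fold change was -0.11 ± 0.28 (SE, 95% interval -0.78 to 0.55, adjusted p = 0.84, edgeR, Benjamini-Hochberg), and 0.14 without knockout 1, so no direction is given. Of 9 tested receptor genes out of 11, 0 passed by edgeR (1 higher and 1 lower at an unadjusted p under 0.05), while DESeq2 and limma-voom each called 1 lower. Their summed level was 16.7 to 21.6 CPM in controls and 10.7 to 17.8 CPM in knockouts, and most of it was Cd226, an activating receptor for Pvr, at 17.3, 12.3 and 17.1 CPM against 7.81 and 14.3 CPM. The other 10 receptor genes reached at most 1.82 CPM in any library. Icos itself stood at 1.41, 1.01 and 1.46 CPM in controls and 0.256 and 0.0172 CPM in knockouts (log2 fold change -3.24 ± 0.84, SE, adjusted p = 0.065), and Pdcd1, which encodes PD-1, at 0.908 ± 0.293 and 1.71 ± 0.152 CPM (0.91 ± 0.36, SE, adjusted p = 0.17).

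Other ligands that can inhibit T or natural killer cells moved in both directions. Of 17 tested out of 19 in the table, 4 rose and 3 fell, with a median log2 fold change of -0.06. DESeq2 also called 4 higher and 3 lower, while limma-voom and edgeR without a filter each called 3 higher and 3 lower. Fgl2, a secreted ligand of an inhibitory Fc receptor, reached 334 ± 60.2 CPM from 106 ± 22.6 CPM in controls, a rise of 1.65 ± 0.19 (SE) on the log2 scale. Ceacam1 rose by 1.76 ± 0.33 from 0.622 ± 0.103 CPM. Tnfsf10, which encodes the death ligand TRAIL, fell from 173 ± 11.4 to 92.4 ± 10.7 CPM (-0.91 ± 0.11). Clec4g, which encodes the lectin LSECtin, fell from 155 ± 11.3 to 50.2 ± 22.1 CPM (-1.63 ± 0.26). The remaining 3 calls were named after their values were seen. They were rises of Pvr, a ligand of TIGIT (0.80 ± 0.15), and Lgals3 (2.88 ± 0.55), and a fall of Vsir, which encodes the B7 family member VISTA (-0.54 ± 0.10, from 67.5 ± 5.39 to 46.5 ± 1.72 RPKM). Vsir, unlike Pdcd1lg2, Cd80, Cd86 and Icosl, was more abundant per length than Cd274. Without control 3, 0 of the 7 passed. Without control 2, 1 rise and 1 fall passed, and without control 1, 2 and 1. Lgals3 was at 1.70 without knockout 1.

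Nos2 encodes inducible nitric oxide synthase, which makes nitric oxide from arginine. The gene (ENSMUSG00000020826) lies on the plus strand of mm10 chromosome 11, from 78920787 to 78960254, with 29 exon blocks and no overlapping annotated exon. It had 6864, 4687 and 4575 reads in controls 1, 2 and 3 and 2709 and 2356 in knockouts 1 and 2. Controls stood at 96.6, 75.1 and 88.0 CPM and knockouts at 49.5 and 40.5 CPM, so the groups did not overlap and the gap between them was wider than the spread within either. The level fell to 52% of the control mean, a log2 fold change of -0.94 ± 0.14 (SE, 95% interval -1.28 to -0.61, adjusted p = 0.02, edgeR, Benjamini-Hochberg). Leaving out single libraries gave -1.10 to -0.81. Without control 1 (-0.86, adjusted p = 0.056) and without control 3 (-0.94, adjusted p = 0.094) it did not pass, at nearly the same size.

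The other synthases and the genes that supply or limit nitric oxide moved in both directions. Nos3, the endothelial synthase, was the more abundant enzyme, at 32.0 ± 6.21 RPKM in controls and 49.6 ± 3.66 RPKM in knockouts, against 19.6 ± 2.46 and 10.2 ± 1.44 RPKM for Nos2. Its CPM values were 109, 160 and 128 CPM in controls and 194 and 216 CPM in knockouts, and the log2 fold change of 0.63 ± 0.16 (SE) had an adjusted p of 0.061 (edgeR, Benjamini-Hochberg). Nos1, the neuronal synthase, was close to the detection limit, with 10, 11 and 16 reads in controls and 1 read in each knockout. It reached at most 0.308 CPM in any library, and its log2 fold change of -3.395 ± 0.875 (SE) had an adjusted p of 0.064 (edgeR, Benjamini-Hochberg). Of 16 tested genes of arginine and nitric oxide metabolism, 2 rose and 1 fell (median log2 fold change 0.24). Slc7a1, a carrier that brings arginine into cells, rose from 66.4 ± 9.95 to 109 ± 7.53 CPM (0.72 ± 0.14), and Ddah2, which clears inhibitors of the synthases, rose by 0.47 ± 0.10. Nostrin, a trafficking partner of the endothelial synthase, fell from 21.3 ± 1.92 to 11.5 ± 0.574 CPM (-0.89 ± 0.13). Ddah1 stood at 144 ± 14.3 and 199 ± 19.1 CPM (0.46 ± 0.11, adjusted p = 0.057). Without control 1 or control 3, 0 of these 3 calls passed, and Ddah2 was at 0.23 (adjusted p = 0.18) once exon length and GC content entered as an offset. Without control 2, Nostrin passed (-0.96, adjusted p = 0.049). DESeq2 called 5 higher and 1 lower in this list.

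**Figure D3:**
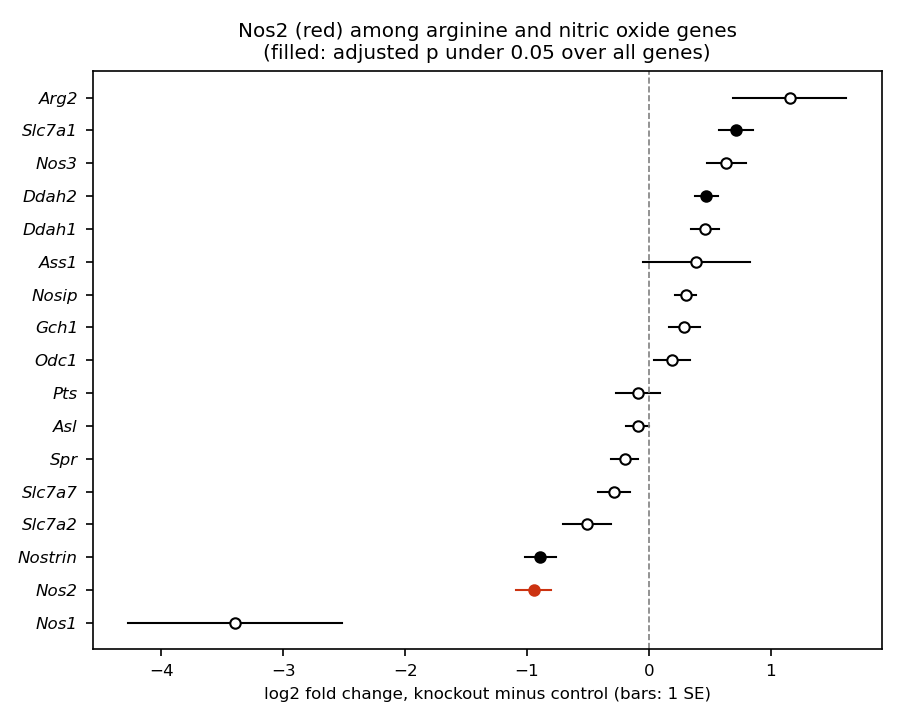
Log2 fold change, knockout minus control (horizontal axis, bars of 1 SE), of Nos2 in red and of 16 tested genes of arginine and nitric oxide metabolism, with filled points where the adjusted p over all genes was under 0.05. Nos2 and Nostrin lie near -0.9, Slc7a1 and Ddah2 lie right of 0, and Nos1 has the widest bar, on 1 to 16 reads per library.

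Ido1, which opens the main route of tryptophan breakdown, was scarce and scattered (chromosome 8, 24584136 to 24597009, minus strand). It had 6, 37 and 20 reads in controls and 35 and 20 in knockouts, or 0.0845, 0.593 and 0.385 CPM against 0.639 and 0.344 CPM. Control 1 was the lowest library and the groups overlapped. The log2 fold change was 0.48 ± 0.78 (SE, 95% interval -1.38 to 2.34, adjusted p = 0.75, edgeR, Benjamini-Hochberg), and -0.04 without knockout 1. Changes of more than 2-fold in either direction lie within this interval. Of 12 other tested genes of tryptophan and kynurenine metabolism, 0 passed by edgeR (2 lower at an unadjusted p under 0.05), while DESeq2 called 1 lower and limma-voom 0. Ahr, the receptor that binds kynurenine, stood at 88.2 ± 4.37 and 70.2 ± 2.86 CPM (-0.33 ± 0.09, adjusted p = 0.069).

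Cd274, Nos2 and Ido1 are textbook targets of interferon gamma, and the genes of that pathway were read beside them. Of 16 tested, 0 rose and 1 fell by edgeR (1 higher and 4 lower at an unadjusted p under 0.05). DESeq2 and limma-voom each called 0 higher and 2 lower. Log2 fold changes were negative for 11 of 16, with a median of -0.16. The gene that fell by edgeR was Nlrc5, an activator of MHC class I genes, from 57.1 ± 4.2 to 35.8 ± 2.66 CPM (-0.67 ± 0.10). Jak1, a kinase of the receptor, stood at 4530 ± 172 and 3210 ± 364 CPM (-0.50 ± 0.12, adjusted p = 0.059). Irf1 stood at 329, 417 and 330 CPM in controls and 370 and 455 CPM in knockouts, and was named after its values were seen. Nlrc5 did not pass without control 2 (-0.65, adjusted p = 0.075), without control 3 (-0.64, adjusted p = 0.098) or with the length and GC offset (-0.52, adjusted p = 0.053). Of 14 genes that govern how long the PD-L1 protein lasts, 0 passed by edgeR (4 higher and 1 lower at an unadjusted p under 0.05), while DESeq2 called 2 higher and limma-voom 0.

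Lgals9 encodes galectin-9, a secreted lectin that binds receptors on T cells, among them TIM-3. It lies tail to tail with Nos2 on chromosome 11 (78962974 to 78984946, minus strand), with 2719 bases between the 2 gene ends and no annotated gene between them. It had 25473, 24378 and 21347 reads in controls and 23887 and 27984 in knockouts. Scaled values were 359, 390 and 411 CPM in controls and 436 and 481 CPM in knockouts, so both knockouts lay above all controls by a small margin. The log2 fold change was 0.25 ± 0.10 (SE, 95% interval 0.00 to 0.49, adjusted p = 0.18, edgeR, Benjamini-Hochberg), and 0.10 with the length and GC offset. Per length, Nos2 stood at 13.1%, 9.31% and 10.4% of Lgals9 in controls and at 5.49% and 4.08% in knockouts. With Nos2 below and Lgals9 above all controls in both knockouts, these shares had to separate. They add nothing to the values of the 2 genes themselves. Of 5 other tested galectins, 1 rose, which was Lgals3, from 1.94 ± 0.862 to 14.3 ± 11.3 CPM, and it did not pass without any 1 of the 3 controls. DESeq2 called 1 galectin of this list higher, while limma-voom and edgeR without a filter called 0. Lgals8 stood at 81.9 ± 8.15 and 69.1 ± 13.6 RPKM and Lgals1 at 31.0 ± 1.51 and 40.0 ± 5.95 RPKM, both below Lgals9.

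Tyr encodes tyrosinase, the enzyme that begins melanin synthesis in pigment cells, and is a well-known example of a tissue antigen that node LECs make and show to CD8 T cells. The gene (ENSMUSG00000004651) lies on the minus strand of mm10 chromosome 7, from 87424771 to 87493512. It had 643, 635 and 480 reads in controls and 158 and 327 in knockouts. Control values were tight, at 9.05, 10.2 and 9.23 CPM, and both knockouts lay below them, at 2.88 and 5.62 CPM. The knockout mean was 44.8% of the control mean, with a log2 fold change of -1.16 ± 0.28 (SE, 95% interval -1.82 to -0.49). The adjusted p was 0.056, just short of the threshold (edgeR, Benjamini-Hochberg). Tyr passed without a filter on low counts (-1.16, adjusted p = 0.022), with a filter at 1 CPM in 2 libraries (-1.15, adjusted p = 0.047), with DESeq2 (-1.16, adjusted p = 0.0012) and with limma-voom (-1.22, adjusted p = 0.044). It was at -0.76 without knockout 1 and at -1.72 without knockout 2, and these sizes show how far apart the 2 knockouts were. Each of these fits leaves 1 knockout and so holds no spread between knockouts. It did not pass without control 1 (adjusted p = 0.13), control 2 (0.15) or control 3 (0.16), or with the length and GC offset (-1.06, 0.078). Tyr also did not pass with RLE size factors (adjusted p = 0.056), library totals alone (0.055), edgeR without robust estimation (0.056) or the replicate number as a block (0.15).

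Of 13 other pigment cell genes, 5 did not pass the filter on low counts, and these included the enzymes closest to tyrosinase. Tyrp1 and Dct, the sister enzymes of tyrosinase, reached at most 0.0548 and 0.019 RPKM in any library, against 0.406 to 1.43 RPKM for Tyr. Dct and Mlana had reads in 1 library each, and Oca2 had 2 reads in 1 library. Pmel stood at 0.897 ± 0.199 and 0.696 ± 0.331 RPKM, and Mitf, the pigment cell transcription factor, at 0.43 ± 0.111 and 0.272 ± 0.107 RPKM. Of 8 tested genes of this list, 0 rose and 1 fell. The 1 was Kit, a receptor kinase that other cells also carry, from 41.7 ± 7.34 to 22.7 ± 0.744 CPM (-0.88 ± 0.15), and it did not pass without control 2 (-0.94, adjusted p = 0.069) or without control 3 (-0.96, adjusted p = 0.081). Ednrb, which endothelium can also carry, stood at 110 ± 6.45 and 146 ± 19.7 RPKM (0.41 ± 0.12, adjusted p = 0.079). Of 2 tested regulators of tissue antigens, 0 passed by edgeR, with 0 at an unadjusted p under 0.05 and 0 by DESeq2 or limma-voom. Deaf1, a regulator of tissue antigens in lymph node stroma, stood at 15.1 ± 1.95 and 15.5 ± 0.954 CPM (0.03 ± 0.14, adjusted p = 0.92), and Aire, its thymic counterpart, had 0 reads in all 5 libraries, which allows up to 0.0422 to 0.0577 CPM per library.

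**Figure D4:**
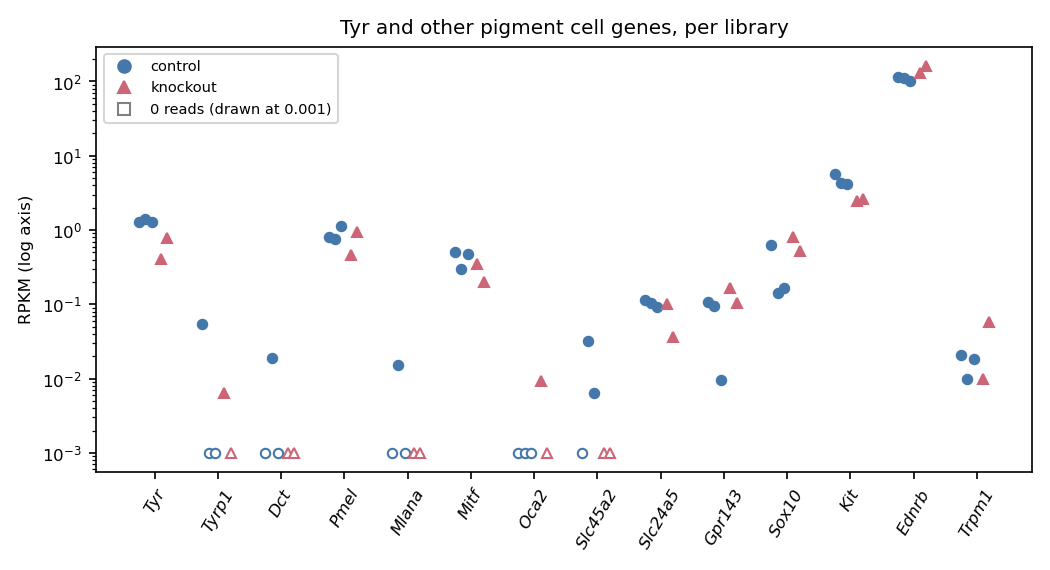
RPKM (vertical axis, log scale) of Tyr and 13 other pigment cell genes, 1 point per library, with blue circles for controls, red triangles for knockouts and open symbols at the bottom for libraries with 0 reads. Tyr lies between 0.406 and 1.43 RPKM, while Tyrp1, Dct, Mlana, Oca2 and Slc45a2 each had 0 reads in some libraries.

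Markers of LEC positions in the node were read beside the 9 genes. Their lists were chosen with earlier results of these data known, so the counts are a description only. Over all 15874 tested genes, 3.25% were called higher and 3.99% lower. Of 10 markers of the sinus floor, which faces the cortex, 0 rose and 4 fell by edgeR (1 higher at an unadjusted p under 0.05, and 1 higher by DESeq2 and 0 by limma-voom), with sums of 13300 to 16000 CPM in controls and 9450 to 10900 CPM in knockouts. Of 9 medullary and cortical sinus markers, 1 rose and 4 fell, with sums of 10300 to 11200 and 5690 to 7150 CPM. Of 8 ceiling markers, 5 rose and 0 fell by edgeR (0 lower at an unadjusted p under 0.05, by DESeq2 or by limma-voom), with sums of 1920 to 2930 and 5010 to 5470 CPM. Of 14 blood endothelial markers, 8 rose and 1 fell, with sums of 2940 to 3500 and 3230 to 3870 CPM and a median log2 fold change of 1.23. These sums were mostly Kdr, which fell (2030, 1910 and 1790 CPM against 1200 and 1150 CPM), and Cd36, which was at 779, 1440 and 1050 CPM against 2390 and 1710 CPM and did not pass. DESeq2 called 8 floor markers lower. Without control 3, 1 floor marker, 1 medullary marker, 0 ceiling markers and 0 blood endothelial markers passed. Without control 2 these counts were 2, 2, 3 and 4, and without control 1 they were 2, 3, 5 and 5. Clec4g, given above among the inhibitory ligands, is also 1 of the 4 medullary and cortical markers that fell. The part of these markers in the values of Nos2, Tyr, Cd274 and Vsir was not tested.

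The genes whose profile over the 5 libraries was most like that of Cd274 were Nucb2, Zfp39 and Gm43305, with root mean square differences of 0.028, 0.035 and 0.039 in centred log2 CPM. For Nos2 they were Rassf2 (0.017), Slc4a3 (0.022) and Hyou1 (0.05), chosen among 11183 genes with a mean log2 CPM of at least 1. This likeness rests on 5 libraries and uses the same contrast, so it is a description only.

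**Figure D5:**
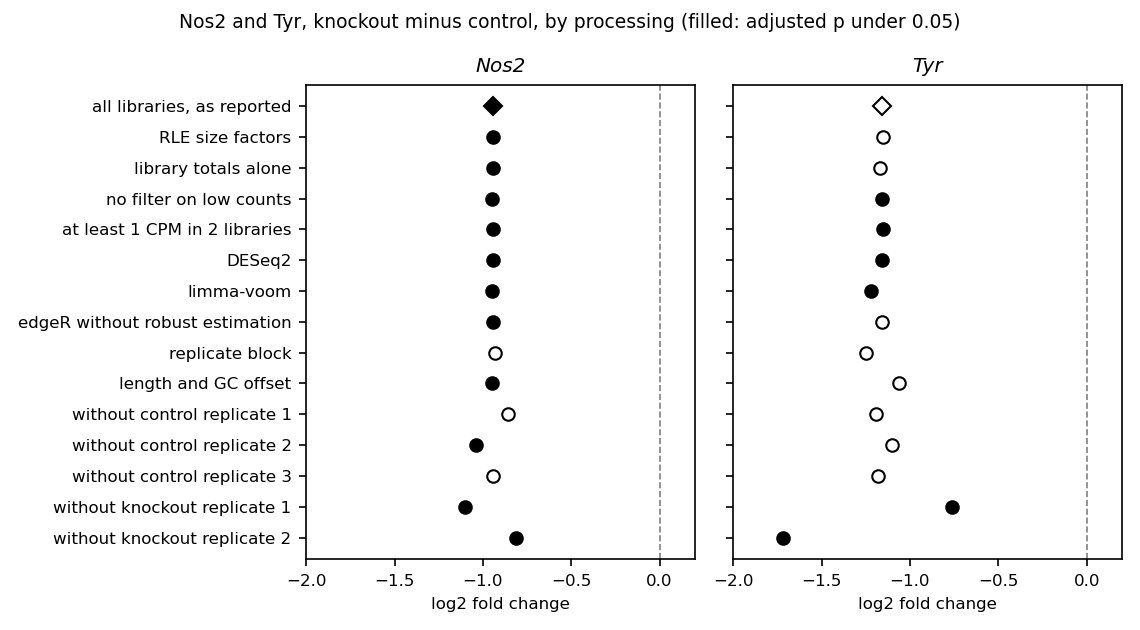
Log2 fold change, knockout minus control (horizontal axis), of Nos2 and Tyr with all libraries (diamond) and under each other processing choice or with a library left out (circles), filled where the adjusted p was under 0.05. Nos2 stays between -1.10 and -0.81 and Tyr between -1.72 and -0.76, and the filled points differ between the 2 genes. Fits without a knockout library leave 1 knockout, with no spread between knockouts, so their filling is not read.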

How the data were processed

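Per the labels' protocols, cells were sorted as CD45 and TER119 negative and CD31 and podoplanin positive, cDNA was made with SMART-Seq v4 and tagmented with Nextera XT, and single 50-base reads were taken. Per the file headers, the authors deposited 1 table of raw counts with a column for each library and an Ensembl gene on each line. HTSeq 0.6.1, Bowtie2 2.1.0, TopHat2 2.0.14, bcl2fastq 2.17.1.14 and the build mm10 appear in the submitters' processing notes, and settings are not given in the sources used. Of 27843 genes, 27648 were matched by identifier to GENCODE M21, which gave positions and exon lengths on the same build.

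The test was run with edgeR 4.0.16 (R 4.3.3). The filterByExpr function at a minimum count of 10 left 15874 genes, library sizes were scaled with TMM, and the quasi-likelihood F test (robust, legacy form) compared knockout with control. P-values were adjusted by Benjamini-Hochberg over all tested genes. Log2 fold changes are knockout minus control, and an SE is the size of the change over the root of its F value. CPM uses TMM-scaled library sizes, in which 1 CPM stood for 52 to 71 reads. RPKM divides it by exon length. Reads carry no molecular identifiers, so limits cover counting error only.

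The members and the 21 gene lists were chosen with earlier results of these data known. All 9 members are named, up to 4 genes with the smallest p from each list, and the 3 nearest profiles for Cd274 and each called member. Marker lists, and the list on PD-L1 protein, are given by counts and sums, except for genes that a sentence turns on. Nos1, Nos3, Cd226, Pvr, Vsir, Irf1, Pmel, Tyrp1, Dct, Mlana, Oca2, Slc45a2, Aire, Itgax, Zbtb46, Cd163, Cd14, Kdr, Cd36 and Ptgs2 fall outside this rule and were picked after their values were seen. Alternatives were no filter, library totals with no TMM, size factors by RLE, a filter at 1 CPM in 2 libraries, DESeq2 1.42.0, limma-voom (limma 3.58.1), edgeR without robust estimation, the replicate number as a block, a loess offset on exon length and GC (span 0.5), and leaving out each library. The test was tried on simulated counts with 200 changed genes.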

Additional observations from a re-analysis of the deposited data

How the results depend on the processing

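The number of genes called was 1150 with all libraries, 2662 with DESeq2 and 11 to 1736 with a library left out (11 without control 3, 173 without control 2, 266 without control 1, 1718 without knockout 2 and 1736 without knockout 1). With the replicate number as a block it was 0 by edgeR, with 2808 genes at an unadjusted p under 0.05. The numbers are not stated to pair animals, and deviations of same-numbered libraries correlated at 0.05 (number 1) and -0.05 (number 2). The number of members called was 1 with all libraries, 2 without a filter, with the filter at 1 CPM, with DESeq2 and with limma-voom, 0 with the replicate block, and 0 or 1 with a control left out. Nos2 was at -0.93 with the replicate block (adjusted p = 0.089) and between -1.10 and -0.81 with a library left out. Tyr passed at -1.16 without a filter, -1.15 with the filter at 1 CPM, -1.16 with DESeq2 and -1.22 with limma-voom, did not pass with the replicate block (adjusted p = 0.15), the length and GC offset (0.078) or any 1 control left out (0.13 to 0.16), and lay between -1.72 and -0.76 with a library left out. Leaving out single libraries moved Icosl between -0.43 and 0.14 and Ido1 between -0.04 and 1.09, and both changed sign without knockout 1. Cd274, Cd86, Lgals9 and Pdcd1lg2 kept their direction and did not pass in any fit that gave an adjusted p. With a library left out the filter tested 15308 to 16643 genes. Pdcd1lg2, Cd80, Cd86 and Ido1 had under 100 reads in every library, which limits their precision. The causes of these shifts were not tested.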

Other observations

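Genes of other suppressive routes were measured beside the 9. Of 12 tested genes for suppressive cytokines, prostaglandin synthesis and adenosine production, 3 rose and 0 fell by edgeR (1 lower at an unadjusted p under 0.05, 1 lower by DESeq2 and 0 by limma-voom), while limma-voom called 1 higher, Ptgs1, and edgeR without a filter 2. The list had a median log2 fold change of 0.21. Ptgs1, the constitutive cyclooxygenase, rose from 71.8 ± 3.06 to 96.0 ± 1.83 CPM (0.42 ± 0.08, SE). Ptges, which makes prostaglandin E, stood at 11.1, 13.5 and 17.0 CPM in controls and 62.4 and 26.1 CPM in knockouts (1.68 ± 0.35), and was at 0.91 without knockout 1. Entpd1, which encodes the ectonucleotidase CD39, rose from 1.76 ± 0.441 to 5.75 ± 3.1 CPM (1.71 ± 0.38), and was at 1.01 without knockout 2. Without any 1 of the 3 controls, none of the 3 genes that rose passed (adjusted p 0.092 to 0.16).

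Of 5 tested ligands of the TNF family that support T cells, with Cd40 in the list, 1 rose and 0 fell by edgeR (2 lower at an unadjusted p under 0.05, and 0 lower by DESeq2 and limma-voom, with DESeq2 calling 2 higher). Tnfsf9, which encodes the ligand of 4-1BB, rose from 1.57 ± 0.437 to 5.22 ± 1.52 CPM (1.73 ± 0.31), and did not pass without control 2 (1.61, adjusted p = 0.089) or control 3 (1.63, adjusted p = 0.12). Cd40 stood at 12.8 ± 2.82 and 19.8 ± 0.331 CPM (0.63 ± 0.19, adjusted p = 0.096). Tnfsf4, the ligand of OX40, had 0.282, 0.032 and 0.231 CPM in controls and 0 reads in both knockouts.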
